A study of Mus musculus with 9 samples.

Results

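The genes described here encode the Toll-like receptors (TLRs) and the proteins that B cells use to sense lipopolysaccharide (LPS), namely Tlr1, Tlr2, Tlr3, Tlr4, Tlr6, Tlr7, Tlr9, Cd180, Ly86 and Ly96. They were taken by gene symbol, and all 10 were among the 17596 genes of the deposited table and among the 10823 genes tested. RNA sequencing was performed on primary splenic B cells of Mb1Cre and Mct1f/fMb1Cre mice, either naïve (day 0) or activated in culture for 3 days with LPS at 10 μg/ml and IL-4 at 50 ng/ml (day 3). The 4 groups held 2 Mb1Cre and 2 Mct1f/fMb1Cre libraries on day 0, and 2 Mb1Cre and 3 Mct1f/fMb1Cre libraries on day 3. Both genotypes carry the Mb1-driven Cre recombinase, which is active from the early B cell lineage on. In Mct1f/fMb1Cre mice it removes a floxed part of Mct1, which encodes a lactate and pyruvate transporter and is listed as Slc16a1. The floxed allele was kept on the C57BL/6J background and the study used young adult mice. The sources used here do not say whether a library came from 1 mouse or a pool, so p-values measure the spread between these libraries, which may in part be technical.

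LPS is carried by CD14 to the complex of TLR4 (Tlr4) with its soluble partner MD-2 (Ly96), in which MD-2 holds the lipid. RP105 (Cd180) with MD-1 (Ly86) is a related pair, prominent on B cells, whose receptor chain lacks the signalling domain of TLR4. TLR2 pairs with TLR1 or TLR6 at the cell surface to bind bacterial lipoproteins, whereas TLR3, TLR7 and TLR9 bind double-stranded RNA, single-stranded RNA and unmethylated CpG DNA in endosomes. In this experiment LPS was thus both the stimulus and the ligand of a receptor that was measured.

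In the GENCODE annotation of GRCm38, Tlr1 (chr5:64924679-64933563) and Tlr6 (chr5:64952031-64960097) lie side by side on the minus strand, 18467 bases apart. Their transcripts share long identical stretches, which matters for values built from aligned reads. Of the 50-base words of the Tlr1 transcript, 15.3% also occurred in Tlr6, and 12.6% of those of Tlr6 occurred in another gene, Tlr1 or Ctsq. The longest identical run had 229 bases and lay in coding sequence, in exon 4 of 4 of Tlr1 (chr5:64925537-64925765) and exon 2 of 2 of Tlr6 (chr5:64953828-64954056). It is shown because reads from inside it cannot be assigned to either gene by sequence alone. How the authors' counting split such reads is not given in the sources used here, so the level of Tlr6, the less abundant of the pair, is uncertain to that extent.
Tlr1 and Tlr6, shared coding run: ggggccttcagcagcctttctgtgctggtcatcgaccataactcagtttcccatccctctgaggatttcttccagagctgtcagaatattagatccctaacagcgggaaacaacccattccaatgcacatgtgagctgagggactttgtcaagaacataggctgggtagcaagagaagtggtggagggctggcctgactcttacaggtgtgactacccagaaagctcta

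Cd180 (chr13:102693558-102739629, plus strand) overlaps Mast4 on the opposite strand, and Tlr3 (chr8:45395665-45411080, minus strand) overlaps the antisense gene Gm45542, with which it shared 1.56% of its 50-base words. Whether counting used strand is not given. The other genes overlapped no annotated gene. Tlr2 lies at chr3:83836272-83841767, Tlr4 at chr4:66827584-66930284, Tlr9 at chr9:106222598-106226883, Ly86 at chr13:37345208-37419036 and Ly96 at chr1:16688051-16709611. Tlr7 lies on the X chromosome (chrX:167304929-167330558).

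The promoters of Tlr1, Tlr9 and Cd180, which had the largest falls on the log2(FPKM + 1) scale after activation in Mb1Cre B cells, are shown as RefSeq gives them (GRCm38.p6, 250 bases before and 50 after the start site, 5′ to 3′ on the gene's strand). By the ratio of the means, Tlr3 (day 3 at 20.2% of day 0) and Tlr2 (33.3%) fell further than Cd180 (37.2%). Capitals mark the core GAGGAA of the site of PU.1, a factor of B cells and myeloid cells, or its reverse complement. The windows are chr5:64933509-64933808 (minus strand) for Tlr1, chr9:106222348-106222647 (plus strand) for Tlr9 and chr13:102693308-102693607 (plus strand) for Cd180.
Tlr1 promoter: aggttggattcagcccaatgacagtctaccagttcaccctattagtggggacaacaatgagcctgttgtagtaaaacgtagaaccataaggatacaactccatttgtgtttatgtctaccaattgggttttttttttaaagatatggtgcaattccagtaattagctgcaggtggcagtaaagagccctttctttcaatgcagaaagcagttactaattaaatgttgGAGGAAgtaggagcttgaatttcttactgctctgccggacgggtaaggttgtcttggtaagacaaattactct
Tlr9 promoter: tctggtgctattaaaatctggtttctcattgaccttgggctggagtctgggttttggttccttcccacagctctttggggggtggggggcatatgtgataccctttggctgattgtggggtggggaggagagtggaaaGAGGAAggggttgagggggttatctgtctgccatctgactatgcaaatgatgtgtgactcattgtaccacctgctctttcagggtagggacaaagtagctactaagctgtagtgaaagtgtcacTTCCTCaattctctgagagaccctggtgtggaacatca
Cd180 promoter: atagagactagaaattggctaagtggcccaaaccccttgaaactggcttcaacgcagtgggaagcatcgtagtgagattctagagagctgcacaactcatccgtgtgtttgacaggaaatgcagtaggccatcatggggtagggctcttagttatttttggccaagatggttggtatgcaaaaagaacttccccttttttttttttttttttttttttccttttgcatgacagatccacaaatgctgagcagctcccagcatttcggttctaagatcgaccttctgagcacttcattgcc
The Tlr1 window held 1 match, 23 bases before the start site, and the Tlr9 window held 2, whereas the Cd180 window held none. A second Tlr1 window (chr5:64932650-64932949), not shown, held none either. Windows were found for 7 of the 10 genes (Tlr1, Tlr2, Tlr3, Tlr6, Tlr9, Ly86 and Cd180), 10 windows in all, and GAGGAA occurred in 2 of these windows (20%), of 2 genes. Over all 32851 RefSeq windows, 28.3% held it. The kappa-B pattern GGANTTTCC was found in the Tlr3 window (1.25% of all windows), and the interferon response pattern GAAANNGAA in windows of Tlr6 and Ly86 (8.56% of all windows). The Ly86 window also held the STAT palindrome, TTC and GAA separated by 4 bases (6.95% of all windows). E-boxes (CANNTG) were found for 5 genes, Tlr1, Tlr2, Tlr9, Ly86 and Cd180, in 70% of the 10 windows and in 72.3% of all windows. Both strands were searched. None of the matches of GAGGAA overlapped a match of another pattern (0 of 3), although GAGGAA and GGANTTTCC can share letters.

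Levels are given in FPKM (fragments per kilobase of transcript, normalised to the mapped fragments), which is per length and allows genes to be compared within a library. The FPKM of all genes summed to between 477079 and 491459 on day 0 and between 547355 and 563586 on day 3, and the sequencing depth behind them is unknown. The targeted gene Slc16a1 had 4.33 and 3.80 FPKM in Mb1Cre and 3.71 and 4.06 FPKM in Mct1f/fMb1Cre libraries on day 0. On day 3 it had 22.58 and 22.95 FPKM in Mb1Cre and 10.82, 9.81 and 9.50 FPKM in Mct1f/fMb1Cre libraries. It was thus lower in Mct1f/fMb1Cre B cells on day 3 (log2 fold change −1.11 ± 0.0712 (SE), adjusted p = 9.07e-06 by limma), but not on day 0, where it overlapped between genotypes. The 4 B cell markers Cd79a, Cd79b, Ms4a1 and Pax5 were detected in every library, with a sum of 3237 to 3641 FPKM on day 0 and 1487 to 1552 FPKM on day 3. The 10 myeloid markers, led by Lyz2, summed to 1138 to 1994 FPKM on day 0 and to 15.7 to 26.8 FPKM on day 3. The Y-linked gene Ddx3y was at 31.13 FPKM in replicate 1 of Mct1f/fMb1Cre day 0, at 0.02 to 0.24 FPKM in the other 3 day 0 libraries and at 14.69 to 16.91 FPKM in the 5 day 3 libraries, so in Mb1Cre B cells the day and the sex of the mice cannot be told apart.

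In naïve B cells the RP105 complex was the most abundant of these transcripts. Ly86 had a mean of 256.9 FPKM and Cd180 of 124.8 FPKM in Mb1Cre B cells, followed by Tlr1 with 88.97 FPKM and Tlr9 with 65.63 FPKM. Tlr7 came next with 29.99 FPKM, then Ly96 with 10.68, Tlr2 with 8.55, Tlr6 with 6.08, Tlr4 with 4.66 and Tlr3 with 3.39 FPKM. No neighbours in this order overlapped between the 2 Mb1Cre libraries. The order of means was the same in naïve Mct1f/fMb1Cre B cells, in which Ly96 and Tlr2 overlapped, as did Tlr6 and Tlr4, and Tlr4 and Tlr3. The transcript of the LPS receptor chain itself was therefore among the lowest of the 10.

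After 3 days Ly86 remained at the top of the order, but Tlr7 took the next place in both genotypes. In Mb1Cre B cells Tlr7, at 54.9 FPKM, was followed by Cd180 at 46.4, Tlr1 at 18.7, Ly96 at 14.9, Tlr9 at 14.04, Tlr2 at 2.85, Tlr6 at 2.71, Tlr4 at 2.19 and Tlr3 at 0.685 FPKM. Ly96 overlapped with Tlr9, and Tlr2 with Tlr6. In Mct1f/fMb1Cre B cells Tlr7 (58.3 FPKM) and Cd180 (58.3 FPKM) overlapped, as did Tlr1 (20.9 FPKM) and Tlr9 (19.5 FPKM), and Tlr6 (3.53 FPKM) stood above Tlr2 (2.38 FPKM).

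**Figure D1:**
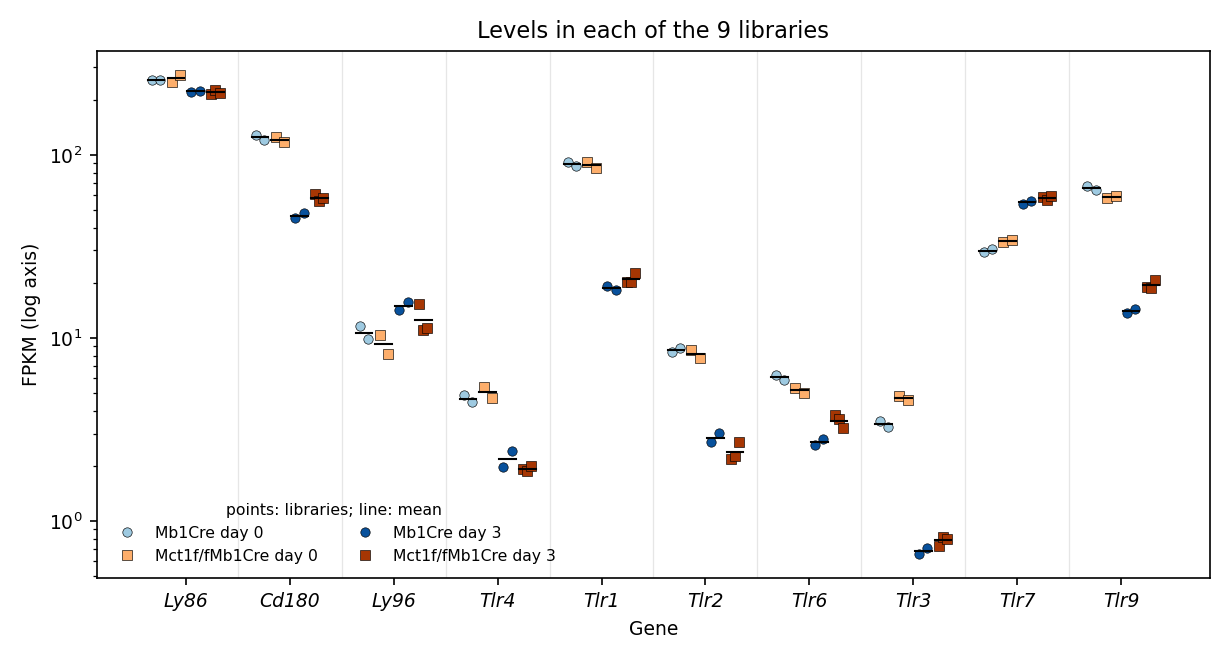
FPKM of each of the 10 genes (log axis) in the 9 libraries, by group, with a line at the mean of each group. Tlr1, Tlr9 and Cd180 sit far lower on day 3 than on day 0, Tlr7 sits higher, and Ly86 stays between 214 and 274 FPKM throughout.

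Activation was tested as day 3 against day 0 within each genotype, with limma on log2(FPKM + 1). A gene was called where its adjusted p was under 0.05 and its log2 fold change, up or down, exceeded 0.5. In Mb1Cre B cells 7 of the 10 genes fell and 1 rose, against 33% and 24.8% of all tested genes called lower and higher. In Mct1f/fMb1Cre B cells 6 of the 10 fell and 1 rose, against 33.2% called lower and 23.4% called higher. The median log2 fold change of the 10 genes was −1.12 in Mb1Cre and −1.04 in Mct1f/fMb1Cre B cells, and that of all tested genes was −0.12 and −0.14. Tlr3 had under 1 FPKM in every day 3 library and passed the filter on low values only through day 0, so it had to differ. Without it, 6 of 9 genes fell and 1 rose in Mb1Cre B cells (median −0.93), and 5 of 9 fell and 1 rose in Mct1f/fMb1Cre B cells (median −1.04). Ranges that do not overlap between the days are common in these data, at 91.9% of all tested genes in Mb1Cre and 89.8% in Mct1f/fMb1Cre B cells. These are bulk libraries, so fewer cells of a type and less RNA per cell cannot be told apart. At a log2 limit of 1, 5 of the 10 genes were called in Mb1Cre B cells, all lower and Tlr3 among them, against 17.3% of all genes called lower and 12.2% higher. When a mean of at least 5 FPKM was required, 4 of the 7 genes left were called lower and 1 higher, against 29.9% and 27.2% of all genes. Of all calls in Mb1Cre B cells 42.9% were higher with the values as deposited, 32.0% after scaling to a common total, 55.4% after median-of-ratios scaling and 50.8% after quantile normalization, and in Mct1f/fMb1Cre B cells these shares were 41.4%, 31.7%, 54.9% and 51.4%. The median of all genes in Mb1Cre B cells lay at −0.12, −0.31, 0.065 and 0.0082 on the log2 scale under the same scalings.

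The RP105 complex changed in its receptor chain. Cd180 had 128.43 and 121.20 FPKM in Mb1Cre and 124.34 and 117.89 FPKM in Mct1f/fMb1Cre libraries on day 0. On day 3 it had 44.99 and 47.78 FPKM in Mb1Cre and 61.20, 55.78 and 57.78 FPKM in Mct1f/fMb1Cre libraries. Every day 3 library was below every day 0 library, and on day 3 the Mct1f/fMb1Cre libraries were all above the Mb1Cre ones. The log2 fold change with activation was −1.41 ± 0.0562 (SE) in Mb1Cre (adjusted p = 9.93e-10, limma) and −1.04 ± 0.0513 (SE) in Mct1f/fMb1Cre B cells (adjusted p = 5.06e-09, limma).

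Ly86, which encodes its partner MD-1, had 256.96 and 256.84 FPKM in Mb1Cre and 250.10 and 273.85 FPKM in Mct1f/fMb1Cre libraries on day 0, and 220.58 and 224.31 FPKM, and 214.29, 226.79 and 216.32 FPKM, respectively, on day 3. The days did not overlap, but the differences were small, with log2 fold changes of −0.21 ± 0.0505 (SE) and −0.26 ± 0.0461 (SE), and Ly86 was not called in either genotype. In Mb1Cre B cells its log2 fold change came to 0.0054 after median-of-ratios scaling. The log2 ratio of Ly86 to Cd180 within a library, free of any scaling factor but for the pseudocount of 1 FPKM, was 0.99 and 1.08 in Mb1Cre and 1.00 and 1.21 in Mct1f/fMb1Cre libraries on day 0. On day 3 the ratio was 2.27 and 2.21 in Mb1Cre and 1.79, 2.00 and 1.89 in Mct1f/fMb1Cre libraries. MD-1 transcripts thus exceeded those of RP105 in every library, and by more on day 3. The difference of means was 0.96 between 5 day 3 and 4 day 0 libraries. The exact two-sided permutation p was 0.0079, the smallest these 9 libraries allow, and 0.0079 when adjusted over the 2 ratios tested. This p follows from the changes of Cd180 and Ly86 given above and is not separate evidence. Within a genotype the exact permutation p was 0.33 in Mb1Cre and 0.1 in Mct1f/fMb1Cre B cells, the smallest these groups allow. On day 3 the ratio did not overlap between genotypes and was 0.34 lower in Mct1f/fMb1Cre B cells, with an exact permutation p = 0.1, the smallest that 3 libraries against 2 can give.

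In the LPS receptor, too, the receptor chain fell. Tlr4 had 4.85 and 4.47 FPKM in Mb1Cre and 5.41 and 4.69 FPKM in Mct1f/fMb1Cre libraries on day 0, and 1.96 and 2.42 FPKM, and 1.91, 1.87 and 2.00 FPKM, respectively, on day 3. All day 3 libraries were below all day 0 libraries, while the genotypes overlapped on both days. Tlr4 fell by 0.83 on the log2 scale in Mb1Cre (SE 0.0952, adjusted p = 8.01e-06, limma) and by 1.05 in Mct1f/fMb1Cre B cells (SE 0.0869, adjusted p = 4.69e-07, limma). In Mb1Cre B cells its log2 fold change was −0.43 with a pseudocount of 5 FPKM and −0.47 after quantile normalization, both under the limit of 0.5.

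Ly96, which encodes MD-2, had 11.54 and 9.81 FPKM in Mb1Cre and 10.31 and 8.12 FPKM in Mct1f/fMb1Cre libraries on day 0. After activation it had 14.13 and 15.73 FPKM in Mb1Cre and 15.25, 11.02 and 11.30 FPKM in Mct1f/fMb1Cre libraries. Within each genotype day 3 was above day 0, but the log2 fold changes of 0.45 ± 0.146 (SE) and 0.40 ± 0.133 (SE) did not reach the limit, and the standard errors were the largest of the 10 genes. After median-of-ratios scaling they were 0.65 and 0.60 and were called, as they were after quantile normalization. They were also called in Mb1Cre B cells without day 0 replicate 1 (0.56) or day 3 replicate 1 (0.52), and in Mct1f/fMb1Cre B cells without day 0 replicate 1 (0.55). The log2 ratio of Ly96 to Tlr4 was 1.10 and 0.98 in Mb1Cre and 0.82 and 0.68 in Mct1f/fMb1Cre libraries on day 0. It was 2.35 and 2.29 in Mb1Cre and 2.48, 2.07 and 2.04 in Mct1f/fMb1Cre libraries on day 3. Every day 3 library was above every day 0 library (difference of means 1.35, exact two-sided permutation p = 0.0079, adjusted 0.0079), and on day 3 the genotypes overlapped. Here too the p follows from the changes of Tlr4 and Ly96 given above and is not separate evidence. Within a genotype the day difference was 1.28 in Mb1Cre and 1.44 in Mct1f/fMb1Cre B cells. The exact permutation p was 0.33 and 0.1, the smallest these groups allow.

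**Figure D2:**
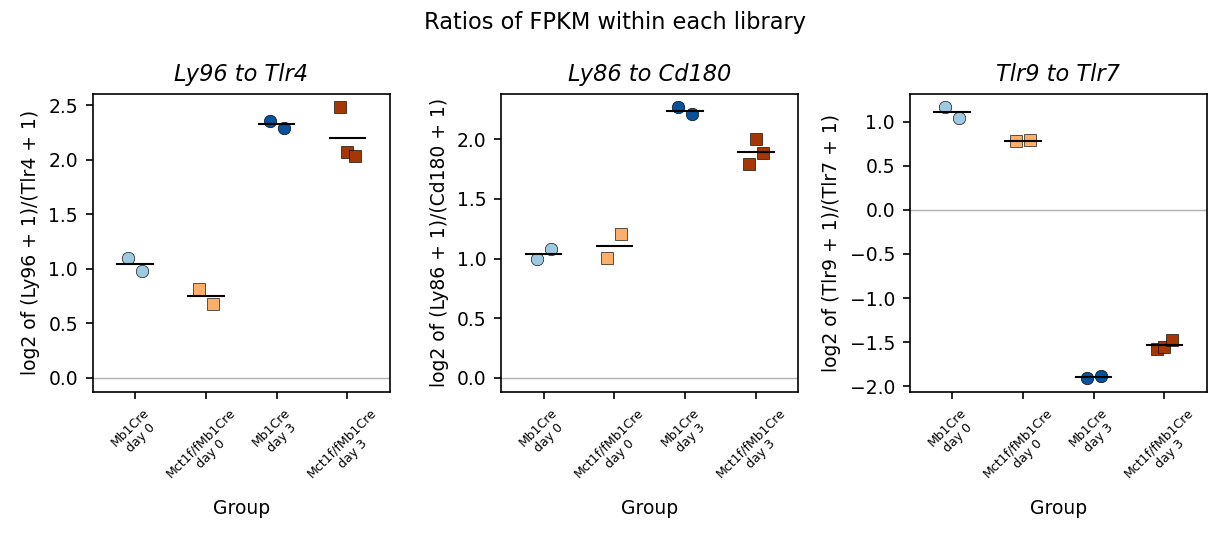
Log2 ratio of FPKM + 1 within each library for Ly96 to Tlr4, Ly86 to Cd180 and Tlr9 to Tlr7, by group, with a line at each mean. The soluble partner exceeds its receptor chain by more on day 3 in both complexes, and the ratio of Tlr9 to Tlr7 changes from above 0 on day 0 to below 0 on day 3.

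Among the lipoprotein receptors all 3 transcripts were lower after activation. Tlr1, the most abundant TLR transcript of naïve B cells, had 91.05 and 86.89 FPKM in Mb1Cre and 90.91 and 84.57 FPKM in Mct1f/fMb1Cre libraries on day 0, and 19.19 and 18.26 FPKM, and 20.16, 20.09 and 22.54 FPKM, respectively, on day 3. The days were far apart, and on day 3 the Mct1f/fMb1Cre libraries were narrowly above the Mb1Cre ones. Its day 3 mean was 21.0% of that on day 0 in Mb1Cre and 23.9% in Mct1f/fMb1Cre B cells, with log2 fold changes of −2.19 ± 0.0636 (SE, adjusted p = 8.59e-11, limma) and −2.02 ± 0.0581 (SE, adjusted p = 7.11e-11, limma). Tlr2, the common partner, had 7.75 to 8.76 FPKM over the 4 day 0 libraries and 2.18 to 3.01 FPKM over the 5 day 3 libraries, and fell by 1.31 and 1.44 on the log2 scale in Mb1Cre and Mct1f/fMb1Cre B cells (adjusted p = 1.06e-07 and 2.04e-08, limma).

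Tlr6 had 6.26 and 5.89 FPKM in Mb1Cre and 5.35 and 4.99 FPKM in Mct1f/fMb1Cre libraries on day 0. Activated libraries had 2.60 and 2.81 FPKM in Mb1Cre and 3.81, 3.58 and 3.21 FPKM in Mct1f/fMb1Cre libraries. The Mct1f/fMb1Cre libraries were below the Mb1Cre ones on day 0 and above them on day 3. Tlr6 fell by 0.93 on the log2 scale in Mb1Cre B cells (SE 0.0834, adjusted p = 9.38e-07, limma), and in Mct1f/fMb1Cre B cells its log2 fold change of −0.45 ± 0.0762 (SE) did not reach the limit. It was called there with a pseudocount of 0.1 FPKM (−0.54) or after scaling to a common total (−0.59).

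The receptors for nucleic acids moved in opposite directions. Tlr9 had 67.11 and 64.15 FPKM in Mb1Cre and 57.81 and 59.84 FPKM in Mct1f/fMb1Cre libraries on day 0. On day 3 it had 13.65 and 14.43 FPKM in Mb1Cre and 19.06, 18.68 and 20.67 FPKM in Mct1f/fMb1Cre libraries. No groups overlapped, with the Mb1Cre libraries highest on day 0 and lowest on day 3. Tlr9 fell by 2.15 on the log2 scale in Mb1Cre (SE 0.0573, adjusted p = 4.57e-11, limma) and by 1.55 in Mct1f/fMb1Cre B cells (SE 0.0523, adjusted p = 2.45e-10, limma).

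Tlr7 was the 1 gene of the 10 called higher in both genotypes, while Ly96 was higher by less than the fold limit. Tlr7 had 29.39 and 30.58 FPKM in Mb1Cre and 33.32 and 34.11 FPKM in Mct1f/fMb1Cre libraries on day 0. After activation it had 53.89 and 55.91 FPKM in Mb1Cre and 58.70, 56.78 and 59.36 FPKM in Mct1f/fMb1Cre libraries. The days did not overlap, and on each day the Mct1f/fMb1Cre libraries were slightly above the Mb1Cre ones. The log2 fold changes were 0.85 ± 0.0453 (SE, adjusted p = 1.07e-08, limma) in Mb1Cre and 0.77 ± 0.0413 (SE, adjusted p = 1.03e-08, limma) in Mct1f/fMb1Cre B cells. Since Tlr7 is X-linked, its values were read beside those of Ddx3y. In Mct1f/fMb1Cre day 0 B cells replicate 1, which had Ddx3y transcripts, and replicate 2, which had 0.20 FPKM of them, held 33.32 and 34.11 FPKM of Tlr7. Without replicate 2 the log2 fold change of Tlr7 in Mct1f/fMb1Cre B cells was 0.79, with 1 library left on day 0. In Mb1Cre B cells Ddx3y was at 0.24 and 0.02 FPKM on day 0 and at 14.69 and 16.53 FPKM on day 3. There the day and the sex cannot be told apart for Tlr7. The part of sex in the rise of Tlr7 was not tested.

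Tlr3 was the lowest of the 10 on day 3. It had 3.51 and 3.26 FPKM in Mb1Cre and 4.81 and 4.55 FPKM in Mct1f/fMb1Cre libraries on day 0, and 0.66 and 0.71 FPKM, and 0.73, 0.82 and 0.80 FPKM, respectively, on day 3. The log2 differences were −1.38 and −1.67, which the pseudocount understates at such levels, and −2.15 and −2.44 with a pseudocount of 0.1 FPKM. Because the gene was tested only by way of its day 0 level, these are given without a test.

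With Tlr9 and Tlr1 falling and Tlr7 rising, the makeup of the TLR transcripts changed. Of the FPKM summed over the 7 receptors, Tlr7 took 13.96% and 14.99% in Mb1Cre and 16.2% and 17.0% in Mct1f/fMb1Cre libraries on day 0. By day 3 it took 56.9% and 57.3% in Mb1Cre and 55.1%, 54.6% and 53.3% in Mct1f/fMb1Cre libraries. Its share was higher on day 3 in every library (difference of means 39.9 percentage points). The log2 ratio of Tlr9 to Tlr7 was 1.16 and 1.04 in Mb1Cre and 0.78 and 0.79 in Mct1f/fMb1Cre libraries on day 0, and −1.91 and −1.88, and −1.57, −1.55 and −1.48, respectively, on day 3 (difference of means −2.62). Between the genotypes it differed in opposite directions on days 0 and 3, by −0.32 on day 0 and 0.36 on day 3, without overlap on either day. The share and this ratio were chosen after the values of single genes had been seen and are given as a description, with no test.

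**Figure D3:**
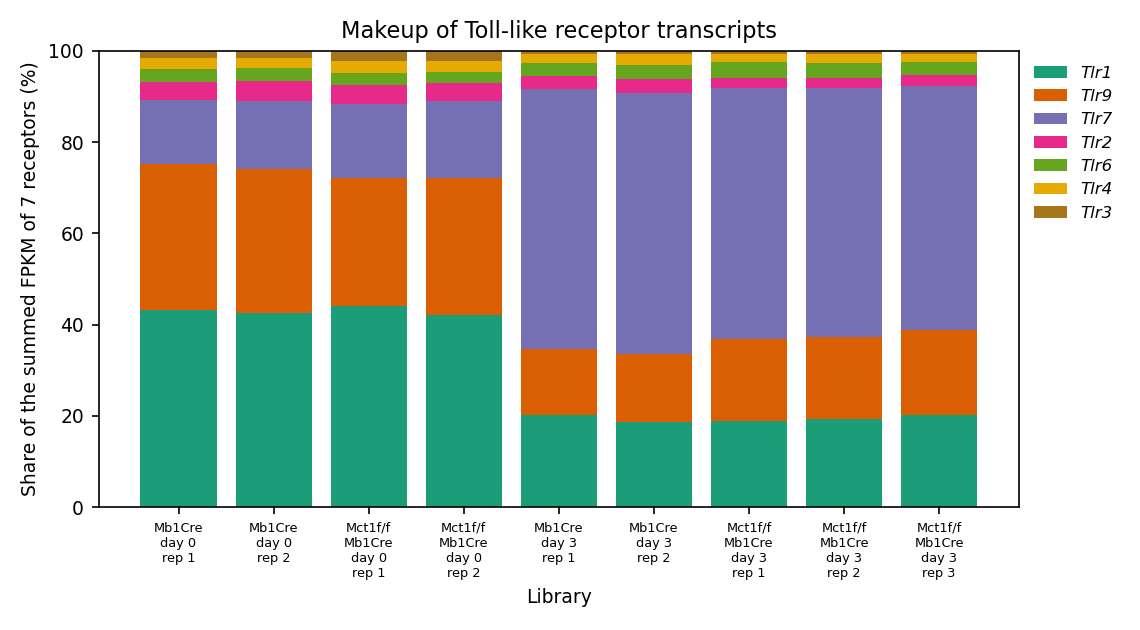
Share of each of 7 Toll-like receptors in their summed FPKM, in percent, with 1 bar per library. Tlr1 and Tlr9 make up most of each day 0 bar, whereas Tlr7 takes 53.3% to 57.3% of each day 3 bar.

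The genotypes were then compared on day 3. None of the 10 genes was called (0 of 10), against 0.887% of all genes called higher in Mct1f/fMb1Cre B cells and 1.53% called lower. Without the fold limit, 3 of the 10 genes passed an adjusted p of 0.05, all higher in Mct1f/fMb1Cre B cells, against 6.03% of all genes higher and 9.21% lower, and 5 of 10 had an unadjusted p under 0.05, against 29% of all genes. The 3 were Tlr9 (log2 fold change 0.44 ± 0.0523 (SE), adjusted p = 0.000349, limma), Cd180 (0.32 ± 0.0513 (SE), adjusted p = 0.00208, limma) and Tlr6 (0.29 ± 0.0762 (SE), adjusted p = 0.0277, limma). Each lay without overlap above the Mb1Cre libraries, as did Tlr1, Tlr3 and Tlr7, which missed the adjusted threshold. The ranges of the genotypes did not overlap for 47.1% of all genes on day 3. For Tlr4 the 95% interval of the log2 difference was −0.31 to 0.072, for Ly96 −0.54 to 0.047 and for Ly86 −0.12 to 0.080, so differences within these intervals were not excluded.

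Markers of other cells also differed between the genotypes on day 3. Of the 10 myeloid markers 2, Lyz2 and Adgre1, were called higher in Mct1f/fMb1Cre B cells and 8 were not called, and the list summed to 15.7 and 17.3 FPKM in Mb1Cre and to between 23.0 and 26.8 FPKM in Mct1f/fMb1Cre libraries, with none of the markers at 0 in all libraries of a group. Most of that sum was Lyz2, with means of 10.76 FPKM in Mb1Cre and 18.2 FPKM in Mct1f/fMb1Cre B cells. The neutrophil genes S100a8 (0.875 and 0.537 FPKM, in the same order) and S100a9 (1.59 and 0.637 FPKM) had lower means in Mct1f/fMb1Cre B cells, as did Mpo (0.09 and 0.06 FPKM) and Elane (0.09 and 0.077 FPKM). Higher means there, not called, were those of Csf1r (0.405 and 0.693 FPKM), Itgam (1.615 and 2.36 FPKM), C1qa (0.29 and 0.613 FPKM) and Fcgr1 (0.25 and 0.283 FPKM). S1pr1, 1 of 4 marginal zone B cell markers, was also higher, with a sum over the list of 21.2 and 23.1 FPKM in Mb1Cre and 32.9 to 34.5 FPKM in Mct1f/fMb1Cre libraries. Of the 4 conventional dendritic markers 2, Batf3 and Zbtb46, were lower, and their sum was 30.4 and 33.9 FPKM in Mb1Cre and 7.93 to 9.65 FPKM in Mct1f/fMb1Cre libraries. Batf3 made up most of it, and in Mb1Cre B cells it went from a mean of 7.04 FPKM on day 0 to 27.00 FPKM on day 3. Xcr1 (0.24 and 0.213 FPKM) and Clec9a (0.02 and 0.0067 FPKM), which mark the cells more narrowly, were near 0 in both genotypes on day 3 and were not called. The part of these cells in the values of Tlr9, Cd180 and Tlr6 was not tested.

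In naïve B cells none of the 10 genes differed at an adjusted p of 0.05 by limma, with or without the fold limit (0 of 10), and 4 of 10, Tlr3, Tlr6, Tlr7 and Tlr9, had an unadjusted p under 0.05, against 11.7% of all genes. Of all genes 0.24% were called higher and 0.037% lower in Mct1f/fMb1Cre B cells on day 0, or 0.351% and 0.0647% without the fold limit. Tlr3 had the widest difference of the 10 (log2 fold change 0.37 ± 0.0854 (SE), adjusted p = 0.136, limma). Tlr3 and Tlr7 were higher and Tlr6 and Tlr9 lower in Mct1f/fMb1Cre B cells without overlap, whereas the ranges did not overlap for 38.4% of all genes. On day 0 Ddx3y was at 31.13 FPKM in replicate 1 of Mct1f/fMb1Cre and at no more than 0.24 FPKM in the other libraries. The 3 plasmacytoid dendritic markers summed to 32.98 and 33.33 FPKM in Mb1Cre and to 23.87 and 27.75 FPKM in Mct1f/fMb1Cre libraries on day 0. The 10 myeloid markers summed to 1138 and 1344 FPKM, and 1251 and 1994 FPKM, respectively. None of these markers was called on day 0, whereas 1 of 4 tested erythroid and 1 of 4 plasma cell markers were called higher in Mct1f/fMb1Cre B cells. The part of sex and of other cells in these differences was not tested.

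The interaction asks whether the change with activation differed between the genotypes. Of the 10 genes 1 was called, Tlr9, with an interaction of 0.60 on the log2 scale (SE 0.0776, adjusted p = 0.00176, limma), against 1.02% of all genes called higher and 2.22% lower. The fall of Tlr9 was thus smaller in Mct1f/fMb1Cre B cells, and its interaction stayed between 0.51 and 0.64 and was called in each of 18 alternative settings that kept the fold limit. Without the fold limit, Tlr6 (0.49 ± 0.113 (SE), adjusted p = 0.0247, limma) and Cd180 (0.37 ± 0.0761 (SE), adjusted p = 0.0158, limma) passed as well, so that 3 of 10 passed, against 3.82% of all genes higher and 5.61% lower. Tlr6 was also called without Mb1Cre day 0 replicate 2 (0.52), without Mct1f/fMb1Cre day 0 replicate 1 (0.53) or without Mct1f/fMb1Cre day 3 replicate 3 (0.54), which gave 2 called genes of the 10 each time. For Tlr7 the interaction was −0.08 (95% interval −0.22 to 0.056), and for Tlr4 −0.22 (−0.50 to 0.070). The activation and genotype comparisons share libraries and are therefore not independent. Sex, read from Ddx3y, was also not balanced over the groups. It cannot be told apart from the day in Mb1Cre B cells, whereas in Mct1f/fMb1Cre B cells replicate 1 of day 0 also held Ddx3y transcripts. The part of sex in the interactions was not tested.

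**Figure D4:**
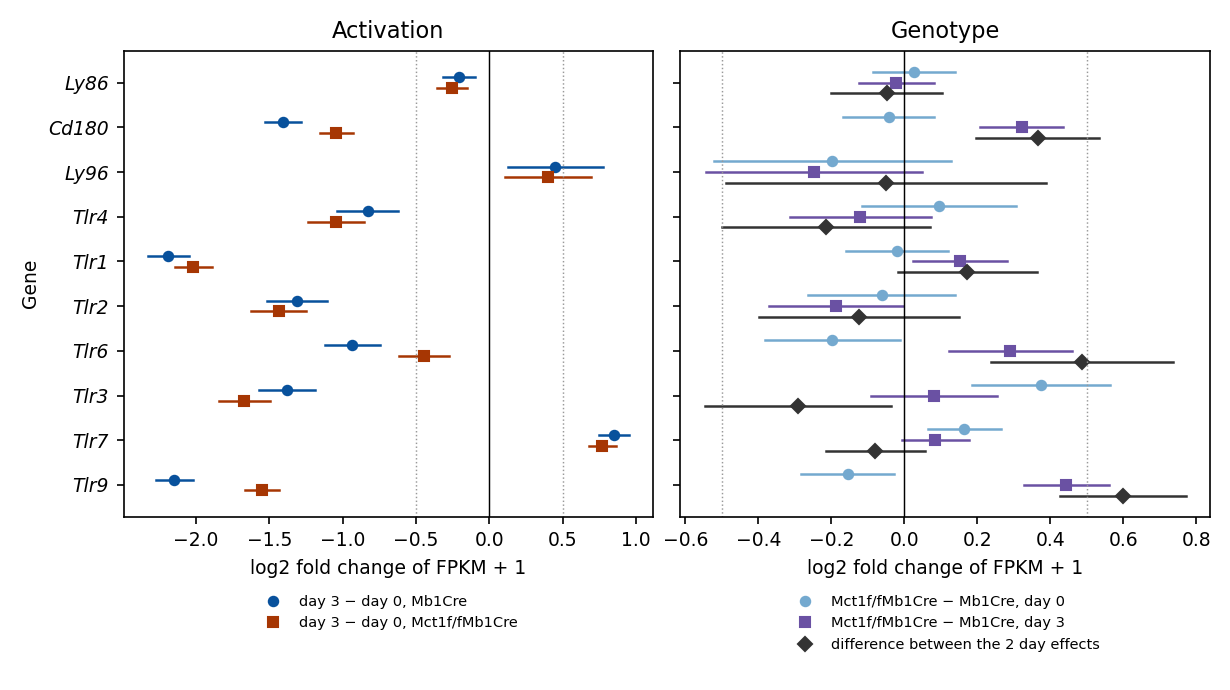
Log2 fold changes of FPKM + 1 with 95% intervals from limma for the 10 genes, by day in each genotype (left) and by genotype on each day with the difference between the 2 day effects (right); dotted lines mark 0.5 in size. Tlr9, Cd180 and Tlr6 have intervals above 0 for the genotypes on day 3 and for the difference between the day effects.

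Of the other TLR genes of the mouse, Tlr5, Tlr8, Tlr11 and Tlr13 were at no more than 0.19 FPKM in every day 3 library. Tlr13, a receptor of bacterial ribosomal RNA, had means of 9.52 and 11.03 FPKM on day 0 in Mb1Cre and Mct1f/fMb1Cre B cells and 0.09 FPKM in both on day 3. Tlr8 changed from 4.15 and 5.50 FPKM to 0.10 and 0.157 FPKM and Tlr11 from 3.53 and 3.95 FPKM to 0 and 0.0067 FPKM. These 3 passed the filter only through day 0, so their differences are given as levels, with no test. Tlr5, the flagellin receptor, stood at 0.93 and 0.99 FPKM on day 0 and at no more than 0.02 FPKM on day 3 and was not tested. Tlr12 kept 2.41 and 2.48 FPKM in Mb1Cre and 1.96, 1.33 and 1.90 FPKM in Mct1f/fMb1Cre libraries on day 3, and its log2 fold change with activation was −0.30 in Mb1Cre B cells, not called, and −0.63 in Mct1f/fMb1Cre B cells, called, with an interaction that did not pass (adjusted p = 0.21, limma). Over the same days the sum of the 10 myeloid markers went to the lower values given above, and the 3 plasmacytoid dendritic markers summed to between 23.9 and 33.3 FPKM on day 0 and between 0.14 and 0.22 FPKM on day 3. Myeloid and dendritic cells express TLRs, among them Tlr2, Tlr4 and Tlr13, and their part in the day 0 levels was not tested.

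Genes that act with the receptors were taken as lists. Of 9 tested genes for LPS transfer and receptor trafficking, 1 rose and 6 fell in each genotype, where 33% (Mb1Cre) and 33.2% (Mct1f/fMb1Cre) of all genes were called lower and 24.8% and 23.4% higher, with a median log2 fold change of −0.86 in Mb1Cre and −0.75 in Mct1f/fMb1Cre B cells. In Mb1Cre B cells the largest changes were in Scimp, a TLR adaptor of antigen-presenting cells (−2.90), Cd14 (−2.37), Slc15a4, an endolysosomal transporter required for TLR7 and TLR9 responses (−1.84), and Hsp90b1, the endoplasmic reticulum chaperone of TLRs (1.37). Unc93b1, which brings the nucleic acid receptors to endosomes, had means of 423 FPKM (day 0) and 177 FPKM (day 3) in Mb1Cre B cells (log2 fold change −1.25) and was named for that role after its value was seen. Cd14, counted among those that fell, had 5.64 to 9.33 FPKM on day 0 and 0.59 to 1.09 FPKM on day 3. It was at 0.59 FPKM in both Mb1Cre day 3 libraries, so it passed the filter on low values mainly through day 0. All 10 myeloid markers were also lower on day 3 in Mb1Cre B cells. Of these, 5 (C1qa, Csf1r, Elane, Fcgr1 and Mpo) passed the filter only through day 0, so they had to differ and are given without a test. The other 5 were all called lower, with Lyz2 going from a mean of 657 to 10.76 FPKM. The part of myeloid cells in the fall of Cd14 was not tested.

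Of 20 adaptors and kinases, 4 rose and 7 fell in each genotype, shares near those of all genes, with a median of −0.15 in Mb1Cre and −0.08 in Mct1f/fMb1Cre B cells, close to that of all genes. Ticam2, the adaptor that links TLR4 to TRIF, rose by 1.84 on the log2 scale in Mb1Cre B cells, from a mean of 5.43 to 22.1 FPKM, and Ikbke, a kinase upstream of interferon genes, rose by 1.37. Irak2 and Traf3 fell by 1.80 and 1.37. Myd88, the adaptor that all TLRs but TLR3 use, had a log2 fold change of 0.20 and was not called.

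Of 6 tested inhibitors, 2 rose and 1 fell in Mb1Cre and 2 rose and 2 fell in Mct1f/fMb1Cre B cells, with medians of −0.30 and −0.37. Of all genes 24.8% rose and 33% fell in Mb1Cre, and 23.4% rose and 33.2% fell in Mct1f/fMb1Cre B cells. Socs1, a suppressor of cytokine signalling, rose by 3.33, from a mean of 9.80 to 107 FPKM in Mb1Cre B cells, and Tnfaip3, which encodes A20, by 1.63. Irak3 fell by 0.73. The interferon regulatory factors split, and in Mb1Cre B cells Irf7 rose by 1.07 whereas Irf5 fell by 1.06 and Irf3 fell by 0.97. None of the 38 tested genes of these 4 lists was called between genotypes on either day or in the interaction (0 of 38), where 0.887% and 1.53% (day 3), 0.24% and 0.037% (day 0) and 1.02% and 2.22% (interaction) of all genes were called higher and lower. Without the fold limit, adaptors and kinases that passed on day 3 were Traf3 (0.26, adjusted p = 0.00821, limma), Ripk1 (0.17, adjusted p = 0.0327, limma) and Tirap (−0.21, adjusted p = 0.0406, limma). Of all genes 6.03% were higher and 9.21% lower in Mct1f/fMb1Cre B cells by that measure.

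**Figure D5:**
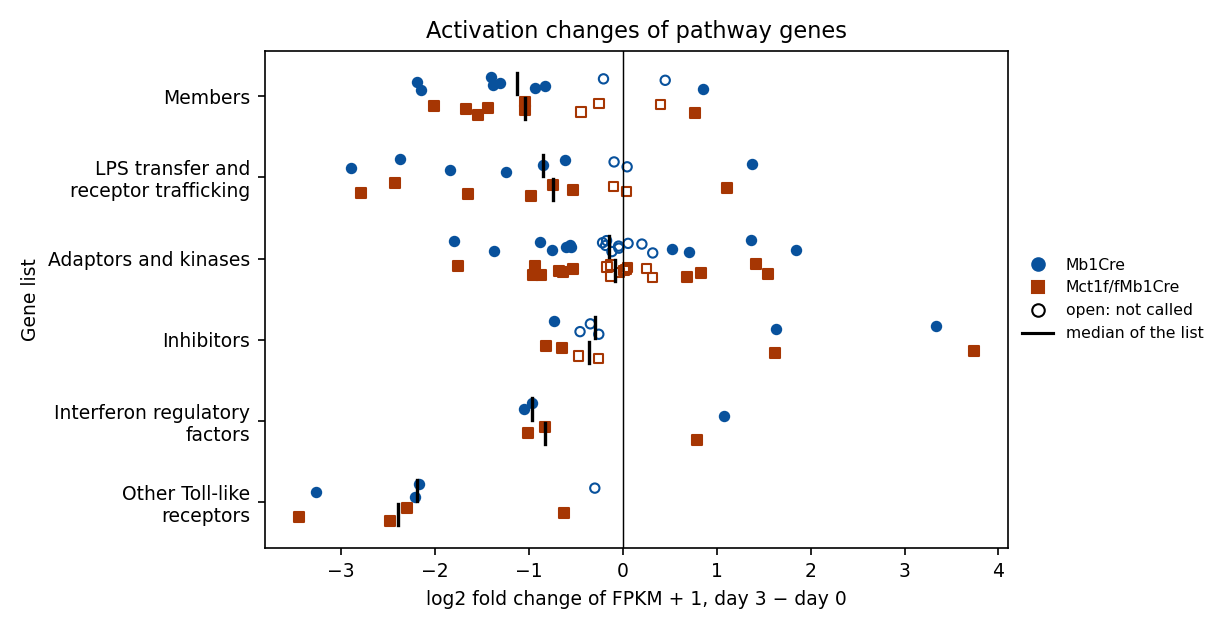
Log2 fold change of FPKM + 1 from day 0 to day 3 for each tested gene of 6 lists in Mb1Cre (circles) and Mct1f/fMb1Cre (squares) B cells, filled where called, with a bar at the median of each list. The medians of the 10 genes lie at −1.12 and −1.04, while those of the adaptors and kinases lie near 0. Tlr3, Tlr8, Tlr11 and Tlr13 passed the filter only through day 0.

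The genes whose pattern over the 9 libraries was most like that of Tlr4, by Pearson's r of log2(FPKM + 1), were Zfp52 (r = 0.998), Chd9 (r = 0.997) and Avl9 (r = 0.997). For Cd180 they were Bank1, a B cell scaffold protein (r = 0.998), Cap1 (r = 0.998) and Arhgap17 (r = 0.998). The 9 libraries fall into 2 days that differ for most genes, and this split sets the size of these values.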

How the data were processed

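The authors deposited FPKM values, 1 per gene and library, for 9 libraries of mouse splenic B cells. RNA was extracted with TRNzol per the labels, or with an RNeasy kit per the methods. The sequencing institute (BGISEQ) carried out the primary analysis, and the submitters' processing notes name Bowtie2 and the builds GRCm38 and mm10. Versions, the annotation and the use of strand are not given in the sources used here. Depth could not be recovered from the values, so no counting intervals were given.

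From these values log2(FPKM + 1) was computed, and genes averaging 1 FPKM or more across all 9 libraries (10823 genes) entered limma 3.58.1 (R 4.3.3). The model had 4 group means, trended empirical Bayes moderation and Benjamini-Hochberg adjusted p-values. The fit was tested on simulated data. Ratios within libraries were compared by exact permutation with scipy 1.17.1 in Python 3.11.15, and figures were drawn with matplotlib 3.10.9. Gene positions and transcripts came from GENCODE, promoters from RefSeq. No protein sequences were used here, and 1 B cell marker is not reported here.

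The genes and lists were chosen with earlier results of these data known. Named from each list were those 4 called genes that changed most in Mb1Cre B cells, and any called between genotypes. The alternatives were other pseudocounts, filters, scalings, fold limits and fits, a replicate block, and each library left out.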

Additional observations from a re-analysis of the deposited data

Results flagged for a closer look

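These genes differed between the genotypes in their change with activation, by limma's test of the interaction at an adjusted p under 0.05. The groups held 2 or 3 libraries and were too small to be screened for outlying samples. Sex, read from Ddx3y, was not balanced over the groups, and its part in these interactions was not tested. Of the receptors, Tlr9 (interaction 0.60 on the log2 scale, adjusted p = 0.00176), Tlr6 (0.49, adjusted p = 0.0247) and Cd180 (0.37, adjusted p = 0.0158) fell less in Mct1f/fMb1Cre than in Mb1Cre B cells, although for Tlr6 the change in Mct1f/fMb1Cre B cells was under the fold limit. Of the 38 pathway genes 4 passed, a share near the 9.42% of all genes, so these lists as a whole did not stand out. Traf3 (0.41, adjusted p = 0.00974) and Lgmn, which encodes a lysosomal protease that processes TLRs (0.32, adjusted p = 0.0167), fell less, and Ticam1, which encodes TRIF (0.31, adjusted p = 0.0291), rose more. Hsp90b1 rose less (−0.27, adjusted p = 0.0271), as did the targeted gene Slc16a1 (−1.06, adjusted p = 0.000424). Apart from Tlr9 and Slc16a1 these interactions were under the fold limit of 0.5.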

How the results depend on the processing

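In Mb1Cre B cells 5 genes were called with activation when a mean of at least 5 FPKM was required, which left 7 of the 10 to be tested, and 5 at a log2 limit of 1. With no fold limit, 3 genes were called between genotypes on day 3 and 3 in the interaction, and at a limit of 1 none was called in the interaction (0). The interaction gave 2 genes, Tlr9 and Tlr6, with a pseudocount of 0.1 FPKM, after scaling to a common total, after quantile normalization and with the replicate block, and between 1 and 2 with each library left out. Same-numbered libraries correlated at −0.12 to 0.064 in their deviations from group means, so no sign of pairing by replicate number was seen. In a group of 2 libraries the deviations mirror each other, so these values cannot exclude a pairing. The block changed no other count, it absorbs the single library numbered 3, and a crossed pairing in Mb1Cre B cells, added after the negative correlation was seen, gave 8 called genes, as without it.

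Of 935 values for single genes, 12 had another sign than with the settings used, all of them uncalled under both. The log2 fold change of Ly86 was 0.0054 in Mb1Cre B cells after median-of-ratios scaling and 0.0012 between genotypes on day 3 after quantile normalization, and the interaction of Ly96 was 0.010 with the replicate block. With each library left out, Tlr1 ranged from −0.072 to 0.031 and Ly86 from −0.039 to 0.092 between genotypes on day 0, and the interaction ranged from −0.21 to 0.10 for Ly96 and from −0.11 to 0.017 for Ly86. The cause was not tested. A further 16 values, all of Ly96 or Tlr6, came to be called and 2, both of Tlr4, ceased to be. The ratios of Ly96 to Tlr4 and of Ly86 to Cd180 kept their direction, at an exact permutation p of at most 0.029, under all 22 alternatives. The difference between days ranged from −2.70 to −2.35 for the log2 ratio of Tlr9 to Tlr7 and from 39.4 to 40.4 percentage points for the share of Tlr7. Depth is unknown, so the counting error of low values such as those of Tlr3 and Tlr4 could not be given.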
